A study of Homo sapiens with 6 samples.

Results

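In order to describe how genes of sugar breakdown and of the low-oxygen response behaved in the HK-2 libraries labelled ANXA2 knockdown, 34 genes were taken by symbol from the 26899 genes of the deposited read counts. The 34 genes were 16 enzymes of glycolysis, from the hexokinases to lactate dehydrogenase, and 18 other genes that belong to the hypoxia-inducible factor (HIF) pathway or are known HIF targets. They were taken from a list of symbols, all 34 were present, and all 34 passed the low-count filter that left 15299 genes for testing. HK-2 is an established cell line from the proximal tubule of a human kidney, transformed with human papillomavirus 16, and its name should not be confused with that of the gene HK2, which encodes hexokinase 2. The control group held 3 libraries, which the titles called wild type and the descriptions abbreviated as shCtrl, and the knockdown group held 3 libraries labelled shANXA2. Per the labels, plasmids were delivered by lipid transfection. The labels do not name separate cultures, so the p-values measure only the spread between these libraries, which may be technical.

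Glycolysis splits glucose into pyruvate, and lactate dehydrogenase then turns pyruvate into lactate when it is not passed to the mitochondria. HIF is a transcription factor made of an alpha subunit, such as the product of HIF1A, and the partner ARNT. While oxygen is present, the prolyl hydroxylases EGLN1 and EGLN3 mark the alpha subunit for destruction through VHL, so HIF activity is set mainly by protein stability rather than by the HIF1A transcript. When oxygen falls, HIF binds a short DNA core and raises the transcription of most glycolytic enzymes and of genes for blood vessel growth, mitochondrial clearance and collagen folding. Proximal tubule cells in the kidney draw their energy mostly from mitochondria, whereas cultured tubule lines use glycolysis.

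The HIF core consists of the letters ACGTG or GCGTG. Promoter windows of 300 bases, from 250 bases before to 50 bases after each RefSeq start site (GRCh38.p14), were found for 31 of the 34 genes. VEGFA, NDRG1 and BNIP3L had no window. The core was found on either strand in 38 of the 57 windows of these genes (66.7%), against 48.4% of all 35116 windows. For the glycolytic enzymes it was in 22 of 36 windows (61.1%), and for the other HIF genes in 16 of 21 (76.2%). Counted by gene, at least 1 core was found for 28 of the 31 genes, against 14318 of all 27305 genes with a window. These 28 were 15 of 16 enzymes and 13 of 15 other HIF genes. The windows of PFKFB4 (chr3:48556754-48557053, minus strand), ADM (chr11:10304823-10305122, plus strand), ANKRD37 (chr4:185396591-185396890, plus strand), ENO2 (chr12:6914330-6914629, plus strand) and BNIP3 (chr10:131981874-131982173, minus strand) are shown because these genes had an unadjusted p under 0.05 below. Each is written in the direction of its gene and capitals mark every core on either strand, where CACGT and CACGC are the cores read on the other strand.
PFKFB4: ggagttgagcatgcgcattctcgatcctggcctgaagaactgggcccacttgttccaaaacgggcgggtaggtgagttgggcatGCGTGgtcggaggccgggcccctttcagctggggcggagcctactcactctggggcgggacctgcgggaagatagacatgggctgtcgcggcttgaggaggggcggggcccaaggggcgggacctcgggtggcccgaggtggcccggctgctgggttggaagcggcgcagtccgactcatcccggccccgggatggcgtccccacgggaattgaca
ADM: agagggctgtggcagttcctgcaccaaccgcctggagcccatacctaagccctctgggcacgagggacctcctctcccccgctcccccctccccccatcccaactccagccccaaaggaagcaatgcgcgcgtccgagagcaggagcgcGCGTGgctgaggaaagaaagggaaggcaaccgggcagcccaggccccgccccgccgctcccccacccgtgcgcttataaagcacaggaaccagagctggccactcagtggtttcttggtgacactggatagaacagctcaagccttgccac
ANKRD37: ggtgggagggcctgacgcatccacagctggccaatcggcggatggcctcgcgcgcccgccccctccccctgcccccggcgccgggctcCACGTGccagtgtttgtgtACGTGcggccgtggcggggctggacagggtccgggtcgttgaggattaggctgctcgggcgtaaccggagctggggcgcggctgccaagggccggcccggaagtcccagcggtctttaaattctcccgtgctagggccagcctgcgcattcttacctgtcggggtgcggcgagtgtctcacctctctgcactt
ENO2: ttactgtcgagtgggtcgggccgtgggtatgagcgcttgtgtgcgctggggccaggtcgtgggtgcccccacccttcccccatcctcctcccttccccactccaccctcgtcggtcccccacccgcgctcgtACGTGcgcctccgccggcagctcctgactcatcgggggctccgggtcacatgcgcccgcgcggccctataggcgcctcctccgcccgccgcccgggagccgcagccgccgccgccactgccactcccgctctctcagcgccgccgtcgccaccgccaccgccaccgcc
BNIP3: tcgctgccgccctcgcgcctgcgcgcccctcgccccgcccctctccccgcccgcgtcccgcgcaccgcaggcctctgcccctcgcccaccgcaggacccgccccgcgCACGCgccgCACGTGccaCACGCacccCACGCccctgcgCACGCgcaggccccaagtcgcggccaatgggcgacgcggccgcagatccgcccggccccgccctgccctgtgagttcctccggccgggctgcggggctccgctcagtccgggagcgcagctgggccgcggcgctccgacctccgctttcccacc
PFKFB4, ADM and ENO2 each had 1 core, which began 166, 101 and 118 bases before the start site. ANKRD37 had 3 cores, a pair of which overlapped in a palindrome, and BNIP3 had 6. Having a core does not set the genes shown apart, since 28 of the 31 genes had at least 1. These matches describe the letters of the windows and were not tested as binding sites.

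As a check of the labels, the level of the gene named as the target was read in every library. ANXA2 (chr15:60347134-60402883, ENSG00000182718.16) encodes the membrane-binding protein annexin A2. Its level in TMM-scaled CPM, which is reads of the gene scaled to library depth, was 1658, 1461 and 1675 in control replicates 1, 2 and 3 and 1538, 1561 and 1519 in the libraries labelled knockdown. The groups overlapped and the log2 fold change was -0.05 (95% interval -0.22 to 0.11, edgeR quasi-likelihood adjusted p = 0.848), so no difference in the ANXA2 transcript beyond the spread between libraries was found, and knockdown is used below as a label only. Library depth ranged from 24231267 to 34561675 reads. The renal transcription factor PAX8 and the epithelial keratins KRT8 and KRT18 were expressed in every library, while the proximal tubule endocytic receptors were near absent, with 1 read of LRP2 and 34 reads of CUBN over the 6 libraries. Across the 15299 genes, 0 genes (0%) passed an adjusted p of 0.05 by edgeR, and 1251 had an unadjusted edgeR p under 0.05. DESeq2, which was run on all 26899 genes without that filter, called 31 genes.

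Transcript levels were compared between genes in FPKM, which divides reads by a length assigned to each gene. The order of genes therefore depends on these lengths, which the spread between libraries does not reflect. GAPDH, the glyceraldehyde 3-phosphate dehydrogenase, was the most abundant of the 34 genes, at 4530, 4234 and 4411 FPKM in control replicates 1, 2 and 3 and at 4587, 4501 and 4946 FPKM in the libraries labelled knockdown. ENO1, the main enolase, followed at 3446, 2927 and 3379 FPKM in the controls and 3577, 3553 and 3571 FPKM in the knockdown group. PKM, the pyruvate kinase, came next, with 1691, 1419 and 1510 FPKM in the controls and 1615, 1646 and 1686 FPKM in the knockdown group. The ranges of these 3 enzymes did not overlap with one another or with that of TPI1. Among all neighbours in the order of the 16 enzymes, 11 of 15 pairs had ranges over the 6 libraries that did not overlap, and the pairs that overlapped were TPI1 with LDHA, LDHA with PGAM1, PFKL with HK1 and HK1 with ENO2. The order ended with HK2 at a mean of 4.89 FPKM and the brain-type aldolase ALDOC at 0.283 FPKM.

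The other HIF genes were less abundant and their order was less distinct. BNIP3, a receptor that directs mitochondria to autophagy, led with a mean of 75.3 FPKM. NDRG1, a stress-induced differentiation gene, followed at 48.6 FPKM. P4HA1, the catalytic subunit of collagen prolyl hydroxylase, had 39.0, 36.0 and 41.5 FPKM in the controls and 41.4, 46.6 and 36.2 FPKM in the knockdown group, with a mean of 40.1. Here 15 of 17 neighbouring pairs had overlapping ranges. CA9, the cell-surface carbonic anhydrase that strongly marks hypoxic cells, was lowest at 0.513 FPKM, and its 169 reads in all libraries together leave its change imprecise. CA9 also shares 571 exon bases on the opposite strand with ARHGEF39, which had 1563 reads.

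**Figure D1:**
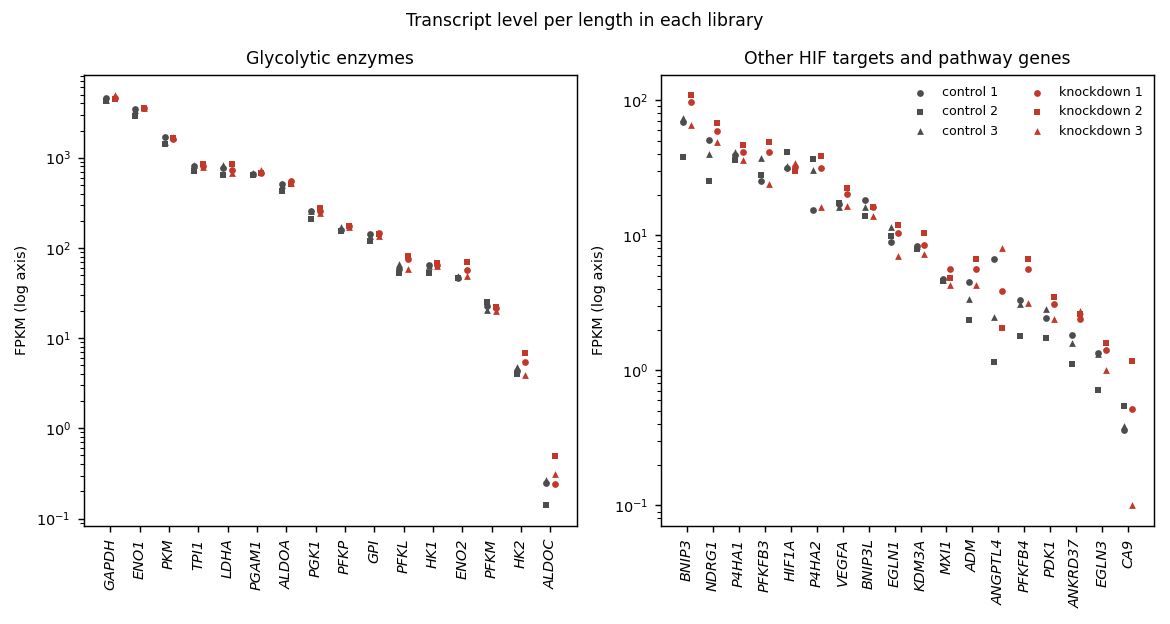
Level of each gene in FPKM (log axis) in every library, with control in grey and knockdown in red, and circles, squares and triangles for replicates 1, 2 and 3. The enzymes span from GAPDH at a mean of 4535 FPKM to ALDOC at 0.283, and the other HIF genes from BNIP3 at 75.3 to CA9 at 0.513.

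Isozyme shares of FPKM showed how each enzyme was divided among its forms. On average over the 6 libraries, HK1 made up 59.1% of hexokinase transcripts, the related HKDC1 36.3% and the inducible HK2 4.56%. In control replicate 2, HKDC1 exceeded HK1, at 49.7% against 46.8%. Of the phosphofructokinases, the platelet form PFKP held 65.9%, the liver form PFKL 25.4% and the muscle form PFKM 8.68%. ALDOA held 99.9% of the aldolase pair and ENO1 98.0% of the enolases. LDHA and LDHB were nearly level, at 52.0% and 48.0%, and LDHB was the higher in control replicate 2 and knockdown replicate 3. The share of PFKFB4 among PFKFB2, PFKFB3 and PFKFB4, enzymes that make and remove the activator fructose 2,6-bisphosphate, was 5.80 to 11.0% in the controls and 11.2 to 11.9% in the knockdown group. The ranges of PFKFB4 did not overlap, but the gap between them was small and this share was chosen after its values were seen.

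Most of the 34 genes were somewhat higher in the libraries labelled knockdown, and none passed the adjusted test. Of the 16 enzymes, 15 had a log2 fold change above 0, with a median of 0.12 and a range from -0.09 for PFKM to 0.67 for ALDOC. Of the other 18 genes, 15 were above 0, with a median of 0.31 and a range from -0.11 for HIF1A to 0.94 for PFKFB4. Over all tested genes 49.0% were above 0 and the median was -0.01. By edgeR, 0 of the 34 genes had an adjusted p under 0.05, and their adjusted p-values lay between 0.599 and 0.968. An unadjusted p under 0.05 was reached by 6 of the 34 genes (17.6%) against 8.18% of all tested genes, and all 6 were higher, against 3.86% of all genes higher and 4.32% lower. By list these were 1 of 16 enzymes (6.25%), which is near the background, and 5 of 18 other HIF genes (27.8%). The genes of a pathway are not independent of one another. The 34 genes were also chosen with earlier results of these data known, so these shares are descriptions only. In bulk RNA, a change in the number of cells that express a gene and a change in RNA per cell cannot be told apart.

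**Figure D2:**
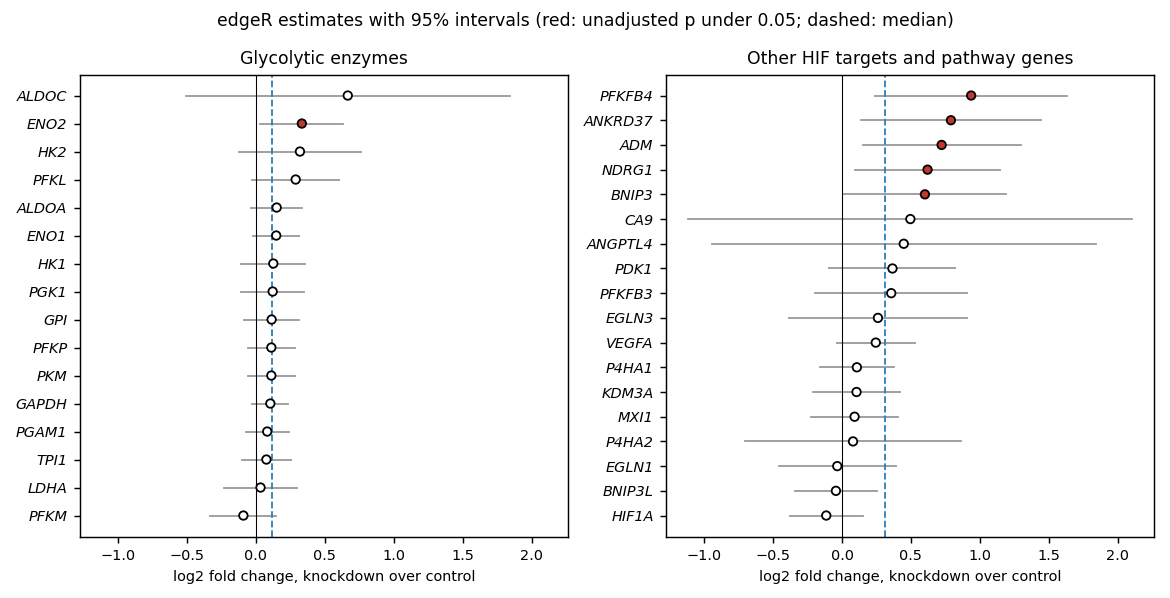
Log2 fold change of each gene, knockdown over control, with a 95% interval derived from the edgeR test. Red points have an unadjusted p under 0.05 and the dashed line is the median of the list. The medians are 0.12 for the enzymes and 0.31 for the other HIF genes, and the intervals of 28 of the 34 genes include 0.

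The enzymes differed little between the groups. Rows of their pseudogenes held at most 0.0771% of the reads of the parent gene. The intervals of 12 of the 16 lay within a change of 1.5 times either way. GAPDH had a log2 fold change of 0.11 with an interval from -0.02 to 0.24. LDHA had 0.03 with an interval from -0.23 to 0.30. In 3 enzymes the groups did not overlap (18.8%), against 7.94% of all tested genes higher and 7.7% lower in the knockdown group. ALDOA, which splits fructose 1,6-bisphosphate, had 2271, 1892 and 2231 CPM in the controls and 2458, 2310 and 2332 CPM in the knockdown group. PGAM1, the phosphoglycerate mutase, had 1294, 1227 and 1304 CPM in the controls and 1332, 1310 and 1408 CPM in the knockdown group. ENO1 had 6533, 5442 and 6364 CPM in the controls and 6825, 6770 and 6723 CPM in the knockdown group. In all 3 the lowest knockdown library was only slightly above the highest control library, and control replicate 2 was the lowest. With 3 against 3 libraries an exact two-sided permutation test cannot give a p below 0.1, which each of these genes reached.

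ENO2 (ENSG00000111674.8, chr12:6913745-6923698), the neuronal enolase, was the enzyme with an unadjusted p under 0.05. It had 157, 152 and 163 CPM in the controls and 195, 238 and 162 CPM in the knockdown group. Knockdown replicates 1 and 2 lay above all controls, while knockdown replicate 3 lay among them. The estimate was 0.33 on the log2 scale (standard error 0.13), with an edgeR unadjusted p of 0.0329 and an adjusted p of 0.605. The other hexokinase and phosphofructokinase genes with the larger estimates showed the same libraries on top. HK2 had 27.5, 24.5 and 30.2 CPM in the controls and 34.5, 43.8 and 24.5 CPM in the knockdown group, and PFKL had 185, 162 and 205 CPM against 236, 256 and 183 CPM.

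Of the HIF genes that act on glycolysis, PFKFB4 (ENSG00000114268.11, chr3:48517684-48562015) had the largest estimate. Its levels were 12.6, 6.73 and 11.8 CPM in the controls and 21.7, 25.8 and 11.9 CPM in the knockdown group. Knockdown replicates 1 and 2 stood apart from all controls and knockdown replicate 3 lay between the controls. The estimate was 0.94 on the log2 scale (standard error 0.31), with an edgeR unadjusted p of 0.0139 and an adjusted p of 0.599. PFKFB3, the more abundant relative, had 134, 144 and 196 CPM in the controls and 219, 262 and 126 CPM in the knockdown group. PDK1, a kinase that inhibits pyruvate dehydrogenase, had 37.1, 25.5 and 43.1 CPM against 47.1, 52.8 and 36.3 CPM. Knockdown replicate 3 was the lowest of the 6 libraries for PFKFB3 and lay among the controls for PDK1, and the unadjusted p was above 0.1 for both. PFKFB4 shares 298 exon bases on the same strand with UCN2, which had 572 reads against its 2831, so some of its reads are uncertain.

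ADM and VEGFA are secreted signals to blood vessels. ADM (ENSG00000148926.9, chr11:10305073-10307397), which encodes the vasodilator adrenomedullin, had 12.9, 6.70 and 9.66 CPM in the controls and 16.3, 19.5 and 12.4 CPM in the knockdown group. Control replicate 1 was above knockdown replicate 3, so the groups overlapped. The estimate was 0.72 on the log2 scale (standard error 0.25), with an edgeR unadjusted p of 0.0189 and an adjusted p of 0.599. VEGFA, the vascular endothelial growth factor, had 68.3, 67.5 and 64.1 CPM in the controls and 81.4, 89.9 and 65.5 CPM in the knockdown group, with an interval of the log2 fold change from -0.04 to 0.53. ANGPTL4, a secreted inhibitor of lipoprotein lipase, did not follow the groups, since it was highest in control replicate 1 at 13.3 CPM and in knockdown replicate 3 at 15.9 CPM and lay between 2.26 and 7.71 CPM elsewhere.

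NDRG1 (ENSG00000104419.14) had 203, 98.2 and 158 CPM in the controls and 236, 273 and 196 CPM in the knockdown group. Control replicate 1 lay above knockdown replicate 3, and control replicate 2 was the lowest by a wide margin. The estimate was 0.62 on the log2 scale (standard error 0.23), with an edgeR unadjusted p of 0.0254 and an adjusted p of 0.605. BNIP3 (ENSG00000176171.11, chr10:131967684-131981967) had 211, 112 and 223 CPM in the controls and 298, 333 and 196 CPM in the knockdown group. Knockdown replicate 3 lay below control replicates 1 and 3. The estimate of BNIP3 was 0.60 on the log2 scale (standard error 0.26), with an edgeR unadjusted p of 0.0469 and an adjusted p of 0.608. The unadjusted p of BNIP3 was 0.0634 with limma on log2(FPKM + 1). Its relative BNIP3L had an estimate of -0.04 with an interval from -0.34 to 0.25.

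ANKRD37 (ENSG00000186352.8, chr4:185396021-185400628), a small ankyrin-repeat gene, was the 1 of 18 other HIF genes (5.56%) whose groups did not overlap. Over all tested genes, the groups did not overlap for 7.94% with knockdown higher and 7.7% with knockdown lower. The share in this list was thus not above the background. It had 2.21, 1.32 and 1.93 CPM in the controls and 2.90, 3.18 and 3.32 CPM in the knockdown group. The estimate was 0.79 on the log2 scale (standard error 0.29), with an edgeR unadjusted p of 0.0229 and an adjusted p of 0.605. ANKRD37 was measured with only 457 reads in all. It also shares 909 exon bases with UFSP2 on the opposite strand, which had 2059 reads, and the strand setting of the counting was not given in the sources used here.

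**Figure D3:**
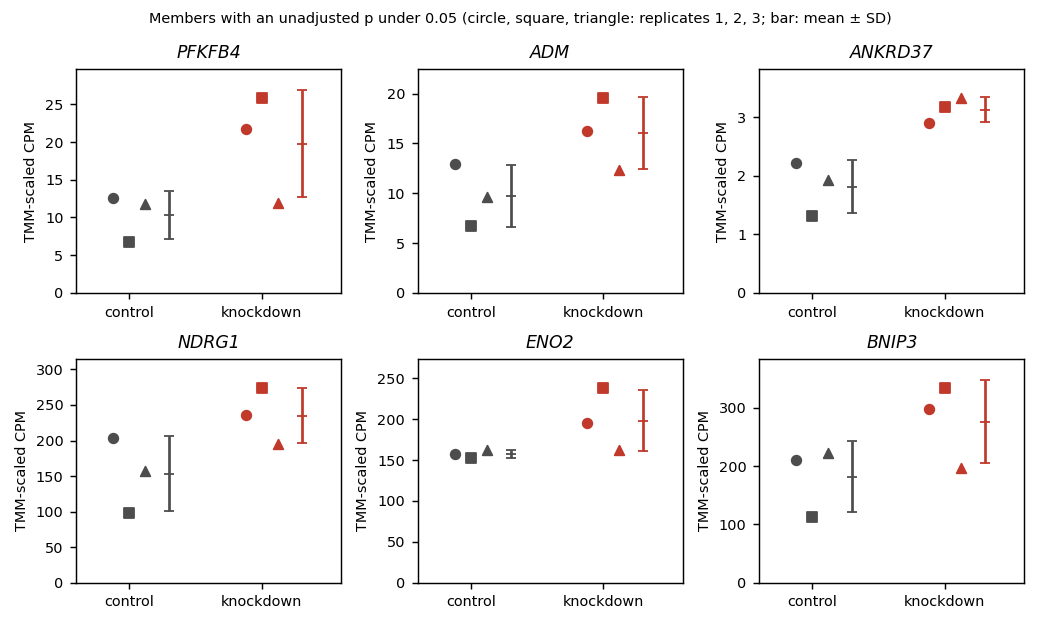
TMM-scaled CPM of the 6 genes with an unadjusted p under 0.05, where circles, squares and triangles are replicates 1, 2 and 3 and bars are the mean ± SD of 3 libraries. ANKRD37 is the gene whose groups do not overlap, from 1.32 to 2.21 CPM in the controls and from 2.90 to 3.32 CPM in the knockdown group.

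The genes that sense oxygen and carry the response showed no shared direction. HIF1A had 142, 183 and 146 CPM in the controls and 144, 136 and 154 CPM in the knockdown group. The groups overlapped, and the interval of its log2 fold change ran from -0.38 to 0.15. HIF1A shares 148 exon bases on the same strand with RP11-618G20.1, which had 5719 reads against its 27864 and an estimate of -0.58, so the reads of this pair are uncertain. EGLN1 had an estimate of -0.03 with an interval from -0.46 to 0.39. EGLN3 had an estimate of 0.26 with an interval from -0.39 to 0.91. P4HA1 stood at 0.11, the histone demethylase KDM3A at 0.11 and the MYC antagonist MXI1 at 0.09, all with intervals that include 0. P4HA2, a second collagen hydroxylase subunit, split the libraries like ANGPTL4 but the other way round, with 60.3 CPM in control replicate 1 and 63.8 CPM in knockdown replicate 3 against 118 to 152 CPM elsewhere. Of the 18 genes, 7 had an interval within a change of 1.5 times either way, so changes of that size remained possible for the other 11.

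Single libraries stood out across the 34 genes. Control replicate 2 was the lowest of the 6 libraries for 24 of the 34 genes (70.6%), against 25.5% of all tested genes. Knockdown replicate 2 was the highest for 21 of the 34 genes (61.8%), against 14.3% of all tested genes. The 16 enzymes together took 3.44%, 2.98% and 3.34% of reads in the controls and 3.50%, 3.54% and 3.52% in the knockdown group. The sum of the enzymes was thus lowest in control replicate 2. The other 18 genes summed to 1233, 1095 and 1329 CPM in the controls and 1553, 1743 and 1166 CPM in the knockdown group, so that knockdown replicate 3 lay within the controls. The median log2 deviation of these 18 genes from their own means was -0.23 in control replicate 2, 0.26 and 0.42 in knockdown replicates 1 and 2, and -0.16 in knockdown replicate 3.

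**Figure D4:**
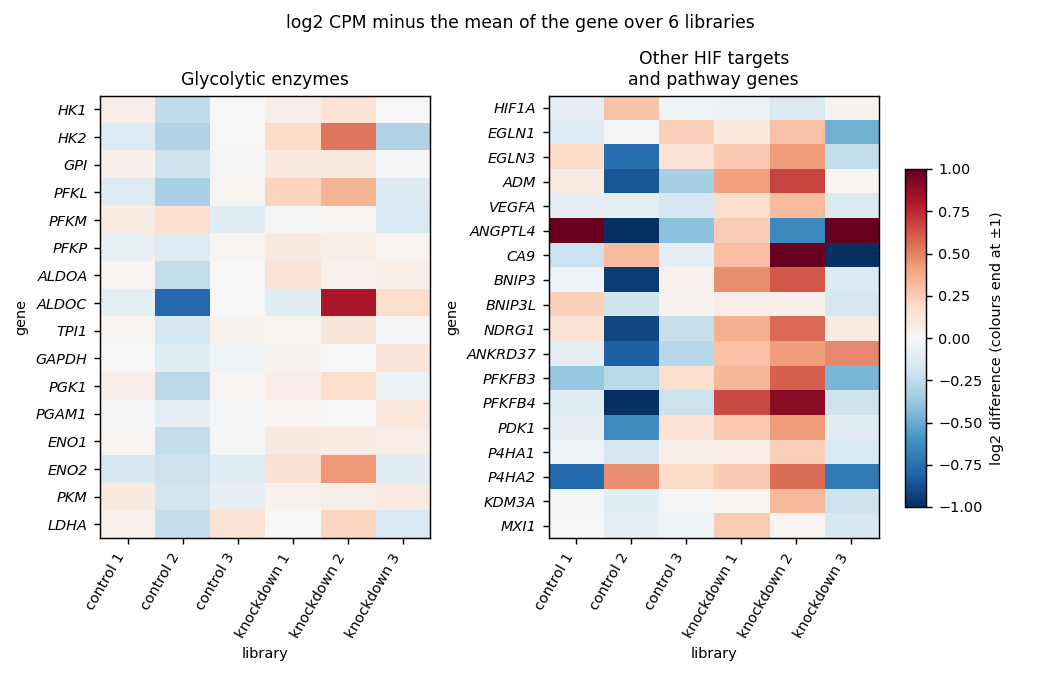
Log2 CPM of each gene minus its mean over the 6 libraries, with red above and blue below the mean and colours ending at 1 either way. Control replicate 2 is the lowest library for 24 of the 34 genes and knockdown replicate 2 the highest for 21.

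Leaving out 1 library at a time moved the count of 6 genes with an unadjusted p under 0.05. Without knockdown replicate 2, 0 of the 34 genes remained under it, against 5.89% of all tested genes in that fit. Without control replicate 2, the count was 2 (NDRG1 and PFKFB4), against 4.71% of all genes. Without knockdown replicate 1, it was 3 (ADM, ANKRD37 and PFKFB4), against 3.21% of all genes. Without knockdown replicate 3, it was 10, against 8.23% of all genes. Without control replicate 1 it was 8, against 12.4% of all genes, and without control replicate 3 it was 6, against 8.87% of all genes, with PDK1 and PFKL under the threshold in place of ENO2 and NDRG1. In each of these fits 0 of the 34 genes passed the adjusted test. All 6 genes kept an estimate above 0 whichever library was left out, and the lowest of these estimates was 0.19, for ENO2 without knockdown replicate 2. These genes were picked by their p in the same libraries, most of which each fit used again. Their kept direction is therefore no independent support. The median of the other HIF genes was 0.31 over all libraries and 0.13 without knockdown replicate 2, and the enzyme median moved from 0.12 to 0.06 when control replicate 2 was left out and to 0.19 when control replicate 1 was. Knockdown replicate 2 had 33486267 reads and control replicate 2 had 32035393, both within the range of the other libraries. Over all tested genes, control replicate 2 was the library most often lowest (25.5%) and most often highest (25.7%). Genes with reads were fewest in control replicate 1 (18861) and knockdown replicate 3 (19569). The part of any library property in these values was not tested.

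**Figure D5:**
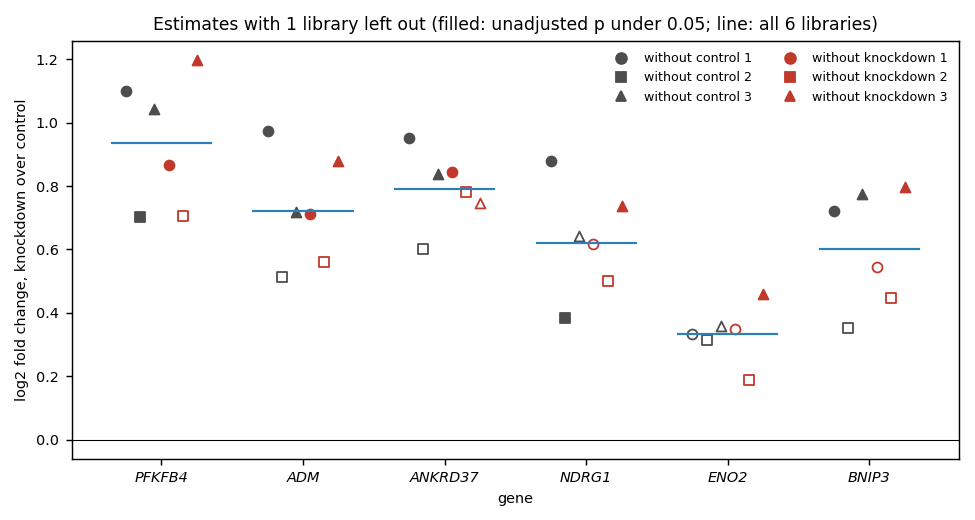
Log2 fold changes of the 6 genes with 1 library left out, where filled symbols have an unadjusted p under 0.05 and blue lines are the estimates from all 6 libraries. All symbols lie above 0, and those without knockdown replicate 2 are open for all 6 genes.

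The low-count filter also mattered. Without it, 4 of the 34 genes passed an adjusted p of 0.05 by edgeR, against 165 of all 26899 genes in that fit. Their edgeR adjusted p-values were 6.28e-05 for NDRG1, 9.09e-05 for BNIP3, 0.000235 for PFKFB4 and 0.0384 for ADM. Over the 15 alternatives, the adjusted p of these genes reached 0.988. With the filter the prior degrees of freedom for the spread of a gene were 5.23, whereas without it they were infinite, so that genes of the same level were given the same spread.

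Genes around the pathway were examined from lists of the same kind, in which 0 genes passed the adjusted test. Of 13 genes of glucose and lactate transport, 8 were higher and 5 lower, with 0 under an unadjusted p of 0.05. SLC2A1, the main glucose importer, had the smallest p of these, with 710, 412 and 525 CPM in the controls and 702, 703 and 723 CPM in the knockdown group and a log2 fold change of 0.37 (edgeR, unadjusted p = 0.0515). Of 11 other glycolytic isozymes and branch enzymes, 4 were higher and 7 lower, and PFKFB2 alone was under the unadjusted threshold, with a log2 fold change of -0.41. The 4 gluconeogenic enzymes were 1 higher and 3 lower, led by G6PC3 at 0.21. Of 13 genes of pyruvate entry to mitochondria and of pyruvate dehydrogenase with its regulators, 5 were higher and 8 lower. That list was led by the phosphatase PDP1 at -0.38. The pentose phosphate pathway had 7 of 8 genes higher, although its smallest p was that of RPE, which was lower at -0.24. None of the genes in these last 3 lists was under an unadjusted p of 0.05.

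Further along the HIF pathway, the HIF subunits and oxygen-sensing genes other than those above were 6 higher and 13 lower of 19, and their median was -0.04 on the log2 scale with 0 under the unadjusted threshold. The smallest p there was that of USP33, a ubiquitin protease, at -0.23. Of 54 further HIF target genes, 35 were higher and 19 lower, with a median of 0.11. SLC2A1, SLC2A3 and SLC16A3 were counted both in this list and among the transport genes. Under an unadjusted p of 0.05 there were 4 higher and 1 lower (9.26% of the list). With both directions together this is near the 8.18% of all tested genes, where 3.86% were higher and 4.32% lower. HILPDA, a lipid droplet protein, had the smallest p, with 8.98, 8.93 and 13.3 CPM in the controls and 17.1, 21.3 and 15.3 CPM in the knockdown group. Its groups did not overlap. In this list that held for 5 genes higher and 2 lower of 54, against 7.94% of all tested genes higher and 7.7% lower. The estimate of HILPDA was 0.78 on the log2 scale (standard error 0.20), with an edgeR unadjusted p of 0.00383 and an adjusted p of 0.599. The others under an unadjusted p of 0.05 were HMOX1, FAM162A and PPFIA4, which were higher, and ERO1L, which was lower, named after their values were seen.

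Markers of other cells were examined beside these results. Leukocyte markers summed to 3.33 to 5.75 CPM in the controls and 4.23 to 7.15 CPM in the knockdown group. Fibroblast markers summed to 31.9 to 41.3 CPM in the controls and 32.1 to 33.1 CPM in the knockdown group. Endothelial markers stayed at 0.424 CPM or less and erythroid markers at 0.861 CPM or less. The 20 renal epithelial markers in the counts summed to 4526 to 5407 CPM in the controls and 4932 to 5287 CPM in the knockdown group, so each of these ranges overlapped between the groups, and the part of these cells in the results was not tested.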

How the data were processed

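Polyadenylated RNA was sequenced from 3 control and 3 knockdown libraries of HK-2 cells. The authors deposited raw read counts per gene for 26899 genes and FPKM values for 26803 genes, rounded to 2 decimals. The submitters' processing notes named GRCh38, TopHat2, bcl2fastq and edgeR; the counting program and its strand setting were not given in the sources used here. Per the file values, the deposited FPKM were a rescaling of the same counts (largest SD 0.000132 on the log2 scale over 2556 genes), so they add no independent measurement. All 6 columns of both tables were used. Depth was 24231267 to 34561675 reads, and replicates of a group differed far beyond sampling noise, so each counted as 1 sample.

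Differential expression was computed in R 4.3.3 by edgeR 4.0.16 (quasi-likelihood test), with TMM scaling, the default low-count filter (10 reads in enough libraries, 15 in total) and all 6 libraries in 1 model without covariates. All tests were two-sided, with Benjamini-Hochberg adjustment over 15299 genes. Fold changes are knockdown over control. The code was tested on simulated data. Gene loci are those of GENCODE release 44 on GRCh38, and promoters came from RefSeq. The 34 genes and the lists were chosen with earlier results of these data known. Values in every library were given for genes with an unadjusted p under 0.05, groups that did not overlap or the highest FPKM, and for HIF1A; of each other list the gene with the smallest p was named, and others named were chosen after their values were seen. The alternatives were RLE, upper-quartile and library-size scaling, no low-count filter, DESeq2 1.42.0, limma 3.58.1 (voom, and on log2 FPKM with a pseudocount of 1 or 0.1), a replicate block, and leaving out each library. The unadjusted counts under the alternatives were added after seeing the data.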

Additional observations from a re-analysis of the deposited data

How the results depend on the processing

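The median log2 fold change stayed above 0 in every alternative for both lists, between 0.06 and 0.19 for the enzymes and between 0.13 and 0.40 for the other HIF genes. Of 510 single-gene values, 492 kept both direction and call, 4 gained a call and 14 changed direction. No low-count filter gave 165 of 26899 genes past the adjusted test, among them 4 of the 34. It also gave 11 of the 34 with an unadjusted p under 0.05 (7.73% of all genes there), against 6 with the filter. DESeq2 gave 31 genes over all genes and 0 of the 34. Both limma fits on FPKM gave 5 of the 34 unadjusted, without BNIP3. Of all genes, 8.43% were under that threshold with a pseudocount of 1 and 8.30% with 0.1. Leaving out 1 library gave 0 to 4 genes over all genes (4 without knockdown replicate 2) and 0 of the 34 adjusted. Unadjusted, it gave 0 to 10 of the 34, against 3.21 to 12.4% of all genes in these fits. The estimate of CA9 turned to -0.0127 with limma-voom. With 1 library left out, estimates ran from -0.147 to 0.0676 for BNIP3L, -0.20 to 0.37 for P4HA2, -0.0656 to 0.117 for LDHA, -0.180 to 0.0127 for HIF1A, -0.20 to 0.16 for EGLN1, -0.0219 to 0.189 for MXI1, -0.43 to 0.99 for CA9, -0.0424 to 0.223 for KDM3A and -0.19 to 1.37 for ANGPTL4; the cause was not tested. Libraries with the same replicate number showed no clear shared deviation, with correlations of -0.06, 0.12 and -0.20. Those of libraries with different numbers ran from -0.23 to 0.22, so this check cannot settle whether the samples were paired. With the replicate block, 0 genes passed the adjusted test over all genes and 6 of the 34 had an unadjusted p under 0.05 (7.03% of all genes), with ENO1 in place of BNIP3, and medians of 0.12 for the enzymes and 0.26 for the other HIF genes, and ANXA2 at -0.05. With 3 libraries in a group, the intervals of 4 enzymes and 11 other HIF genes reached beyond a change of 1.5 times, and CA9, ALDOC and ANKRD37 rest on 169, 113 and 457 reads.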
